A study of Mus musculus with 2 samples.

Results

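Oas1a, Oas2, Oas3, Oasl1, Oasl2, Ifih1, Ddx58, Dhx58, Eif2ak2 and Adar encode oligoadenylate synthetases, their relatives and other proteins that bind double-stranded RNA in the cytosol. They were chosen by gene symbol from the feature list, and all 10 were found once among 32285 features. Their levels were compared between tumors treated with MSA-2, a small-molecule agonist of the DNA-sensing adaptor STING, and untreated tumors, in all cells and in classes of cells gated by marker genes. The tumors were subcutaneous grafts of MC38, a mouse colon carcinoma line, in C57BL/6 mice aged 6 to 8 weeks. Injections went into the tumor 3 times, 3 days apart, and tumors were collected on day 7. The labels call the control group untreated, the methods call it saline-treated, and the series text gives it a vehicle of saline with 10% DMSO. Tumors of 3 mice were pooled in each group, and each pool gave 1 single-cell library of 3′ ends, so the spread between animals was not measured and no test between the groups was possible. The untreated file held 198135335 unique molecular identifiers (UMIs) in 14386 barcodes and the MSA-2 file 204387165 UMIs in 14617 barcodes, of which 53 barcodes occurred in both. Levels are given as UMIs per 1000000 UMIs of a class (CPM), with exact 95% intervals that cover counting error only.

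Double-stranded RNA in the cytosol is a sign of viral infection, and cells hold several sensors for it. The synthetases answer it by making oligoadenylates, the RIG-I-like helicases signal through the adaptor MAVS toward type I interferon, the kinase PKR blocks translation, and ADAR1 edits adenosines so that the cell's own RNA is less readily sensed. All are known as interferon-stimulated genes, whereas STING lies downstream of a DNA sensor and itself leads to type I interferon.

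After filtering and removal of barcodes called as doublets, 13334 untreated and 13393 MSA-2 cells remained, with medians of 8299 and 9271 UMIs. Cells that scored below the cuts for all marker programs of leukocytes, fibroblasts and vessels formed the largest class, with 6433 untreated cells (48.2%) and 6937 MSA-2 cells (51.8%). This class is called marker-negative here because the 11 markers meant to identify carcinoma cells, most of them epithelial, were near 0 in it. Their levels summed to 1.29 CPM without and 11.1 CPM with MSA-2. Krt7 was the most abundant of them at 0.556 CPM in the untreated library and Prl2c2 at 7.18 CPM in the MSA-2 library. Cldn3 was at 0 in both libraries, and Cldn4 and Krt20 were at 0 in the MSA-2 library. The class was led instead by Shisal2b, Asns, Rhox5, Cox6a2, Klra4 and Phgdh, of which Klra4 is a marker of the NK panel. Low scores do not mean that markers were absent, and the fibroblast panel summed to 1973 CPM without and 2507 CPM with MSA-2 in this class. The methods describe the cells as sorted and as immune cells. In marker-negative cells the leukocyte gene Ptprc stood at 13.1 CPM without and 8.81 CPM with MSA-2, against 666 and 837 CPM in macrophage-like cells. Ptprc belongs to the 5 leukocyte genes whose summed level had to lie below 500 CPM in a marker-negative cell. Its low level there was thus set by the gate and is no separate finding. Class sizes differed widely between the libraries. There were 3291 untreated and 872 MSA-2 macrophage-like cells, 331 and 653 monocyte-like cells, 25 and 2357 neutrophil-like cells, 1081 and 121 T-like cells, 202 and 107 NK-like cells, 173 and 314 fibroblast-like cells, and 60 and 75 endothelial-like cells. No class was assigned to 11.8% of untreated and 14.3% of MSA-2 cells. Classes were cut from marker scores and are ranges. Cells within 0.05 above the cut made up 10.4% of untreated and 38.9% of MSA-2 fibroblast-like cells, 24.2% and 20.98% of monocyte-like cells, and 6.81% and 13.8% of macrophage-like cells. They made up 36.3% and 33.3% of dendritic-like, 28.0% and 10.5% of neutrophil-like, and 8.97% and 19.0% of T-like cells.

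The genes lie at 7 places in the genome (build GRCm38, GENCODE annotation). Oas2 (chr5:120730333-120749853), Oas3 (chr5:120753098-120777661) and Oas1a (chr5:120896256-120907521), all on the minus strand, belong to a cluster of 10 synthetase genes spanning 191 kb, in which 3.24 kb separate Oas2 from Oas3. Oasl2 (chr5:114896936-114912234) and Oasl1 (chr5:114923240-114937915) are neighbors on the plus strand of the same chromosome, 11005 bases apart. The helicase genes are dispersed, with Ifih1 at chr2:62595798-62646255, Ddx58 at chr4:40203773-40239828 and Dhx58 at chr11:100694884-100704271, all on the minus strand. Eif2ak2 lies at chr17:78852564-78882573 on the minus strand and Adar at chr3:89715022-89753446 on the plus strand. Of the windows of 50 bases in the last 500 bases of Oas1a, 56.1% also occur in Oas1g, so the division of UMIs between this pair is uncertain. No such overlap with the relatives compared was found for the other 9 genes. The interferon-inducible and the constitutive form of ADAR1 start at different promoters but have coding transcripts with a common 3′ end, so the UMIs of Adar cannot tell these forms apart.

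Because the genes are known as interferon targets, promoter windows from RefSeq (GRCm38.p6, 250 bases before to 50 bases from the annotated start) were searched for the core of the interferon-stimulated response element, taken as GAAA, any 2 bases and GAAA again, or the same on the other strand, TTTC, any 2 bases and TTTC. Windows were at hand for 8 of the 10 genes, and none were for Oas2 and Dhx58. The core was present in the windows of 5 of these 8 genes, Oas1a, Oas3, Ifih1, Ddx58 and Eif2ak2, against 3.99% of all 27025 genes with a window. The gamma-activated site TTCNNNGAA, which reads the same on both strands, was in the windows of 3 genes, Oas1a, Eif2ak2 and 1 of 3 starts of Adar, against 9.55% of all genes with a window. The windows of 4 genes are shown because their matches differ in place and strand, with capitals marking the core of the response element and each sequence written along the strand of its gene. They are those of Oas1a (chr5:120907476-120907775, minus strand), in which a pair of overlapping matches begins 20 and 14 bases before the start, Oas3 (chr5:120777610-120777909, minus strand), Ifih1 (chr2:62646206-62646505, minus strand) and Ddx58 (chr4:40239776-40240075, minus strand), which holds the core on the other strand.
Oas1a: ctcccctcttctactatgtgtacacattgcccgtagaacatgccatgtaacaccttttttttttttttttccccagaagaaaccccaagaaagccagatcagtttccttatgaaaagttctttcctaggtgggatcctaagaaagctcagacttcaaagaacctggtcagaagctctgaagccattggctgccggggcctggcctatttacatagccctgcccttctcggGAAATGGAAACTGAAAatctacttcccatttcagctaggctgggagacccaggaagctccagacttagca
Oas3: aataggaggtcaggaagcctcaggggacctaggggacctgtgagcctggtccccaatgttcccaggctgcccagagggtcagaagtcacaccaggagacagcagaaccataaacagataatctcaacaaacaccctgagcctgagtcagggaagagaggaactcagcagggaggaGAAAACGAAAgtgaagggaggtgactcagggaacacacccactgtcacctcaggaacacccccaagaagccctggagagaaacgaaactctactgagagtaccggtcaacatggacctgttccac
Ifih1: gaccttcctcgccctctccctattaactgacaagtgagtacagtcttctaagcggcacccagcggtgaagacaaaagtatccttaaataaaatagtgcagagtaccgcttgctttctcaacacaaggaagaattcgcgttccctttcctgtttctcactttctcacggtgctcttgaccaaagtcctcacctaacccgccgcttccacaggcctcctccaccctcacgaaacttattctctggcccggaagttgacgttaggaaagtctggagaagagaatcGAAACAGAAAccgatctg
Ddx58: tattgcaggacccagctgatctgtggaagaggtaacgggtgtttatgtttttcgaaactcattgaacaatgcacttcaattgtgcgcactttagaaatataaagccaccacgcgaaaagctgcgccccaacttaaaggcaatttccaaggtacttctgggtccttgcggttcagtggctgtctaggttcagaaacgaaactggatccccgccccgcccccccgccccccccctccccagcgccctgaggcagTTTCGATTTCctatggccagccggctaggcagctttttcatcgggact
A match describes these letters in this window only, and factor binding was not measured. Near matches, such as GAAA repeated with a shorter gap, were not counted or capitalized and occur in windows of Oas3, Ddx58 and Adar. A window without a match may thus still hold a response element.

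**Figure D1:**
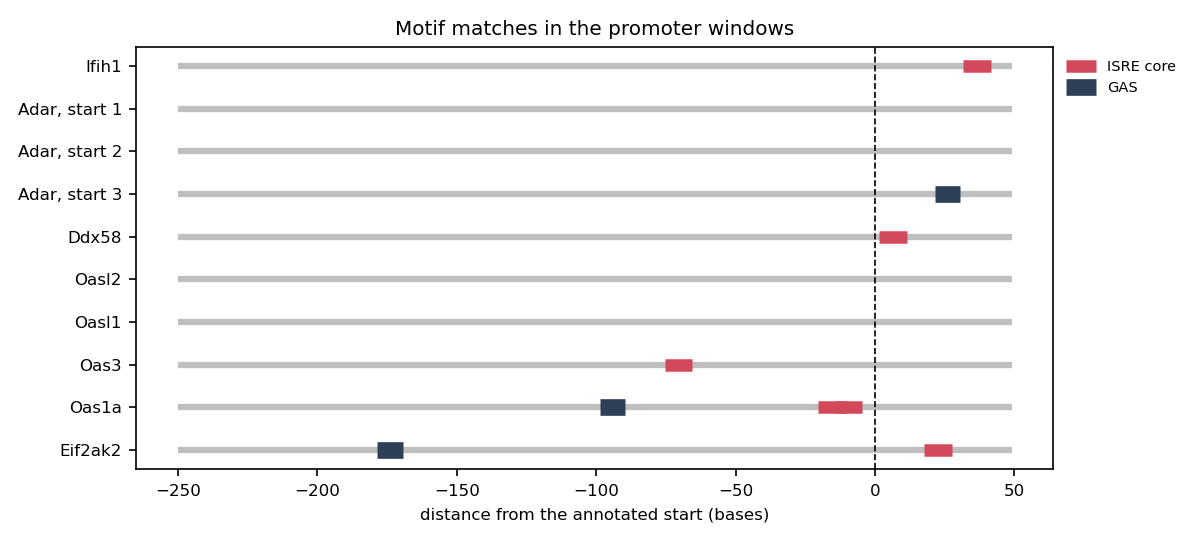
Position of each match to the response element core (red) and the gamma-activated site (dark blue) in bases from the annotated start, in the 10 promoter windows of 8 genes (gray bars, 250 bases before to 50 bases from the start). The matches of Ifih1, Ddx58 and Eif2ak2 to the core lie after the start, and those of Oas1a and Oas3 before it.

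Over all cells, every one of the 10 genes was higher in the MSA-2 library. Their levels summed to 683 CPM (679 to 687) without and 1502 CPM (1496 to 1507) with MSA-2, a log2 ratio of 1.14. The log2 ratio was at least 1 for 6 of 10 genes, against 9.42% of the 17404 features with at least 50 UMIs, and at most -1 for none, against 7.60%. The median log2 ratio was 1.12 for the 10 genes and 0.01 for those features. Among the synthetases, Oas3 went from 11.8 to 45.4 CPM, a log2 ratio of 1.94, and Oas2 from 13.7 to 52.1 CPM, a log2 ratio of 1.93. These ratios were the highest of the 10 genes. Oasl1 had the most UMIs of the 10 genes in both libraries and one of the lower ratios, from 210.1 to 372 CPM (log2 ratio 0.83). Adar, from 20.1 to 34.5 CPM, had the lowest at 0.78. All 10 intervals lay above 0, but the share of features with such intervals is not given here.

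Cells of different classes contributed very unequally to these sums, and the make-up of the libraries differed. Macrophage-like cells held 10.8% of all UMIs in the untreated library but 66.7% of the Oasl1 and 51.0% of the Ifih1 UMIs. In the MSA-2 library they held 2.56% of all UMIs, 16.8% of the Oasl1 and 16.2% of the Ifih1 UMIs. Ddx58 was distributed quite differently, with 86.7% of its untreated and 81.4% of its MSA-2 UMIs in marker-negative cells, which held 78.4% and 83.2% of all UMIs. When the MSA-2 levels of each class were weighted by the share of UMIs that the class had in the untreated library, the log2 ratio went from 0.83 to 1.26 for Oasl1 and from 1.14 to 1.61 for Ifih1. For the other 8 genes it shifted little, the standardised values lying between 0.80 for Ddx58 and 1.91 for Oas3. Both genes stood highest in macrophage-like cells before treatment, and the share of these cells was smaller after it.

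**Figure D2:**
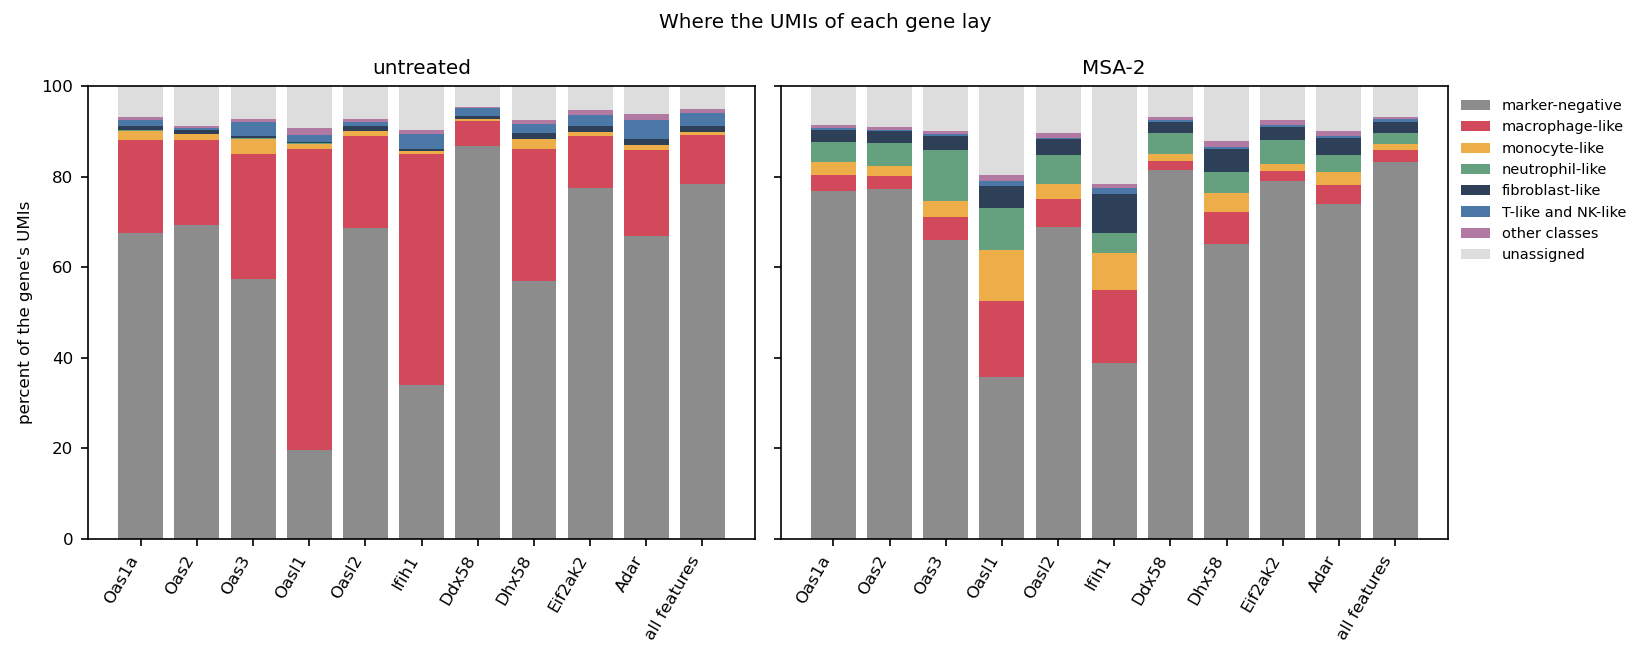
Percent of the UMIs of each gene that lay in each class, for the untreated (left) and MSA-2 (right) library, with the share of all UMIs in the last bar. Macrophage-like cells held 66.7% of untreated Oasl1 UMIs and 16.8% after MSA-2.

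Ratios were also taken within classes, where free RNA from other classes can still enter. In fibroblast-like and endothelial-like cells they were higher for every one of the 10 genes than over all cells. In fibroblast-like cells the log2 ratio was at least 1 for all 10 genes (6.04% of 8913 features), with a median of 2.07 against -0.15 for the features. The cells gated as fibroblast-like differed in their markers as well, and the fibroblast panel summed to 54656 CPM without and 37779 CPM with MSA-2, the monocyte panel to 3723 and 6078 CPM. In endothelial-like cells the log2 ratio was also at least 1 for all 10, of which 9 had the 50 UMIs asked of the features (5.65% of 4603 features), with a median of 2.59 against -0.13. Their endothelial panel summed to 7809 CPM without and 5084 CPM with MSA-2, and the macrophage panel to 371 and 107 CPM. The fibroblast panel summed to 331 and 842 CPM and the neutrophil panel to 17.9 and 553 CPM. Both classes rest on few untreated cells, and endothelial-like Oas3 on 3 untreated UMIs. In monocyte-like cells 8 of 10 genes reached 1 (10.7% of 6663 features), with a median of 1.40 against -0.27. All 10 reached 1 there with TMM factors, and also with a monocyte panel without its 3 interferon-responsive markers. In marker-negative cells 8 of 10 reached 1 (9.04% of 16014 features) and none reached -1 (5.15%), with a median of 1.32 against 0.05. In macrophage-like cells 6 of 10 reached 1 (5.90% of 11343 features) and none reached -1 (5.66%), with a median of 1.16 against -0.13. Their macrophage panel summed to 19497 CPM without and 16638 CPM with MSA-2. The monocyte panel summed to 929 and 1953 CPM and the neutrophil panel to 121 and 1174 CPM. All 10 intervals lay above 0 in each of these 5 classes. The share of features with such intervals is not given for any class, so the interval counts here and below have no background. In T-like cells 7 of 10 reached 1 (4.06% of 7929 features), with a median of 1.81 against -0.15, and 8 intervals lay above 0. Of the 9 genes with at least 50 UMIs there, as asked of the features, 6 reached 1. In NK-like cells 5 of 10 reached 1 (3.87% of 4962 features), with a median of 1.02 against -0.11, and 5 intervals lay above 0. Only 6 genes had at least 50 UMIs there, of which 3 reached 1, and Oas2 rests on 1 and 13 UMIs. The shares of features depend on this minimum, and with 10 or 1 UMIs in its place they were 7.68% and 35.0% in T-like and 7.39% and 18.5% in NK-like cells. In neutrophil-like cells 8 of 10 reached 1 (4.74% of 5627 features), with a median of 1.68 against -1.20, but the untreated values there rest on 32 UMIs of the 10 genes in 25 cells, and only 5 intervals lay above 0. Adar had no untreated UMI there, and with 3 counts in place of 0 its ratio was -0.89, a substitute value and not an estimate. Its exact interval ran from -1.199 with no upper limit. TMM factors, which scale on features that differ little, shifted ratios by -0.07 in marker-negative cells, where 6 genes in place of 8 then reached 1. The shifts were 0.20 in fibroblast-like, 0.16 in endothelial-like, 0.29 in monocyte-like and 1.23 in neutrophil-like cells, and at most 0.04 in size in the other classes and over all cells. With these factors the 1 ratio below 0 was that of Adar in NK-like cells.

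**Figure D3:**
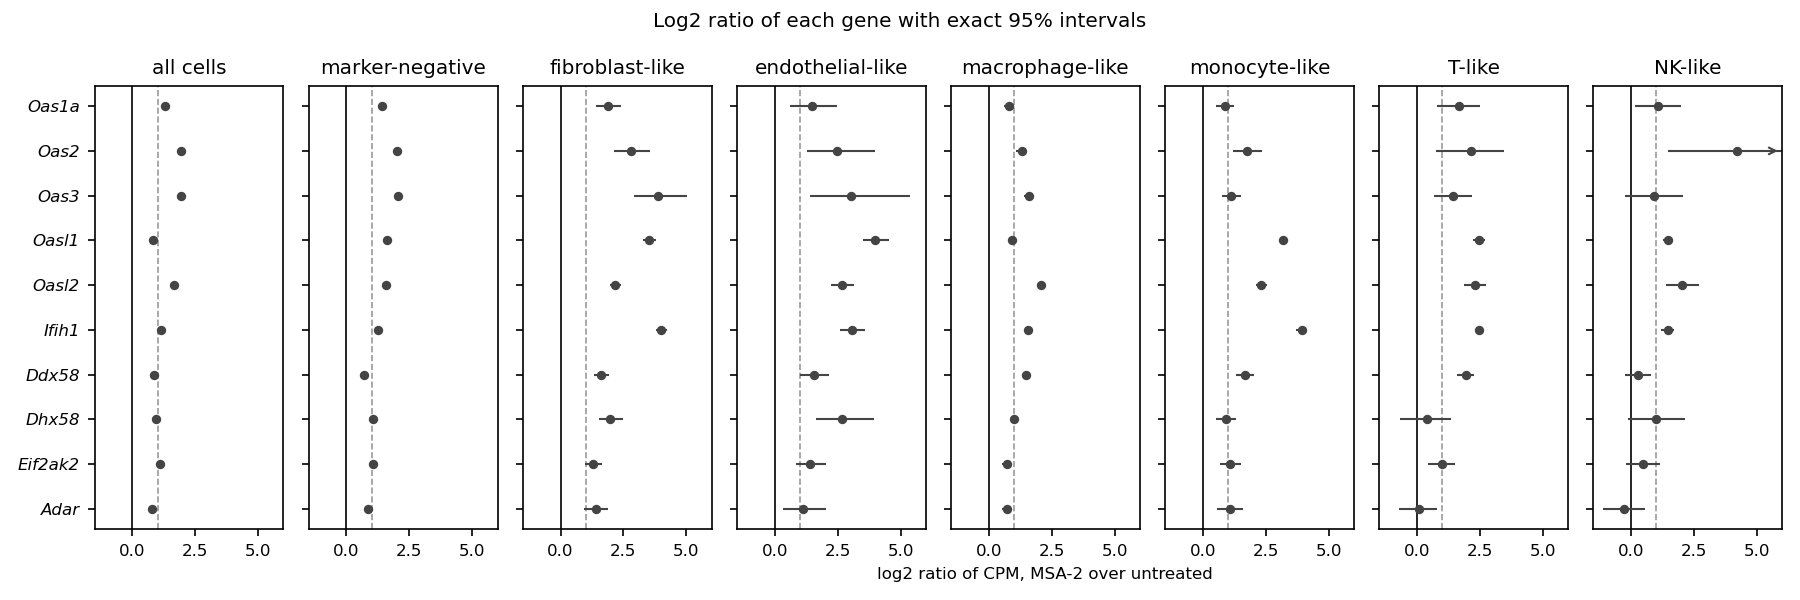
Log2 ratio of CPM, MSA-2 over untreated, for each gene over all cells and in 7 classes, with exact 95% intervals for counting error. The solid line marks 0 and the dashed line 1, and the interval of Oas2 in NK-like cells runs past the axis (13 against 1 UMIs).

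Oas1a, Oas2 and Oas3 encode synthetases. In marker-negative cells Oas3 went from 8.64 to 35.9 CPM, a log2 ratio of 2.06. In fibroblast-like cells it went from 4.05 CPM (9 UMIs) to 59.1 CPM (268 UMIs), a log2 ratio of 3.87 (2.92 to 5.01). Its level after MSA-2 was highest in neutrophil-like cells, at 207 CPM (194 to 221), and the next class, monocyte-like cells, stood at 126 CPM (113 to 141). Oas2 showed a similar order after MSA-2, with 108 CPM in neutrophil-like, 86.2 CPM in monocyte-like and 15.2 CPM in T-like cells. In untreated cells Oas2 was at 23.9 CPM in macrophage-like and 12.04 CPM in marker-negative cells, and its log2 ratios there were 1.31 and 2.01. Oas1a had a log2 ratio of 0.80 in macrophage-like cells (43.6 to 75.9 CPM) and of 1.40 in marker-negative cells (19.7 to 52.1 CPM). In monocyte-like cells its ratio was 0.87 (68.5 to 125 CPM) as gated but 1.67 with the panel that lacks the interferon-responsive markers, so its place among the classes depends on the gate.

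Oasl1 and Oasl2 encode proteins that are named synthetase-like and carry ubiquitin-like domains, and mouse Oasl1 is known to restrain translation of Irf7. In untreated tumors Oasl1 was highest in macrophage-like cells at 1296 CPM (1280 to 1312), followed by dendritic-like cells at 589 CPM (539 to 644) and monocyte-like cells at 340.2 CPM (309 to 374), with no overlap of these intervals. Its lowest untreated levels, from 52.2 CPM in marker-negative to 72.4 CPM in T-like cells, had overlapping intervals between neighbors in the order. After MSA-2 the order changed at the top, and Oasl1 stood at 3111 CPM (3043 to 3180) in monocyte-like and 2446 CPM (2403 to 2490) in macrophage-like cells. The highest ratios were those of endothelial-like and fibroblast-like cells, but marker-negative cells, lowest before treatment, had a lower ratio than monocyte-like cells. Endothelial-like cells went from 59.1 to 943 CPM, a log2 ratio of 3.997 (3.495 to 4.54), and fibroblast-like cells from 66.2 to 765 CPM, a ratio of 3.53 (3.29 to 3.78). The ratio was 3.19 in monocyte-like, 2.47 in T-like, 1.62 in marker-negative and 0.92 in macrophage-like cells. Oasl2 varied less among classes than Oasl1. Its untreated level was 176 CPM in macrophage-like, 82.7 CPM in marker-negative and 24.0 CPM in NK-like cells. After MSA-2 it stood at 782 CPM in neutrophil-like, 736 CPM in macrophage-like and 732 CPM in monocyte-like cells, whose intervals overlapped between neighbors. In macrophage-like cells its log2 ratio of 2.06 (1.99 to 2.13) was the highest of the 10 genes, in contrast to Oasl1.

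**Figure D4:**
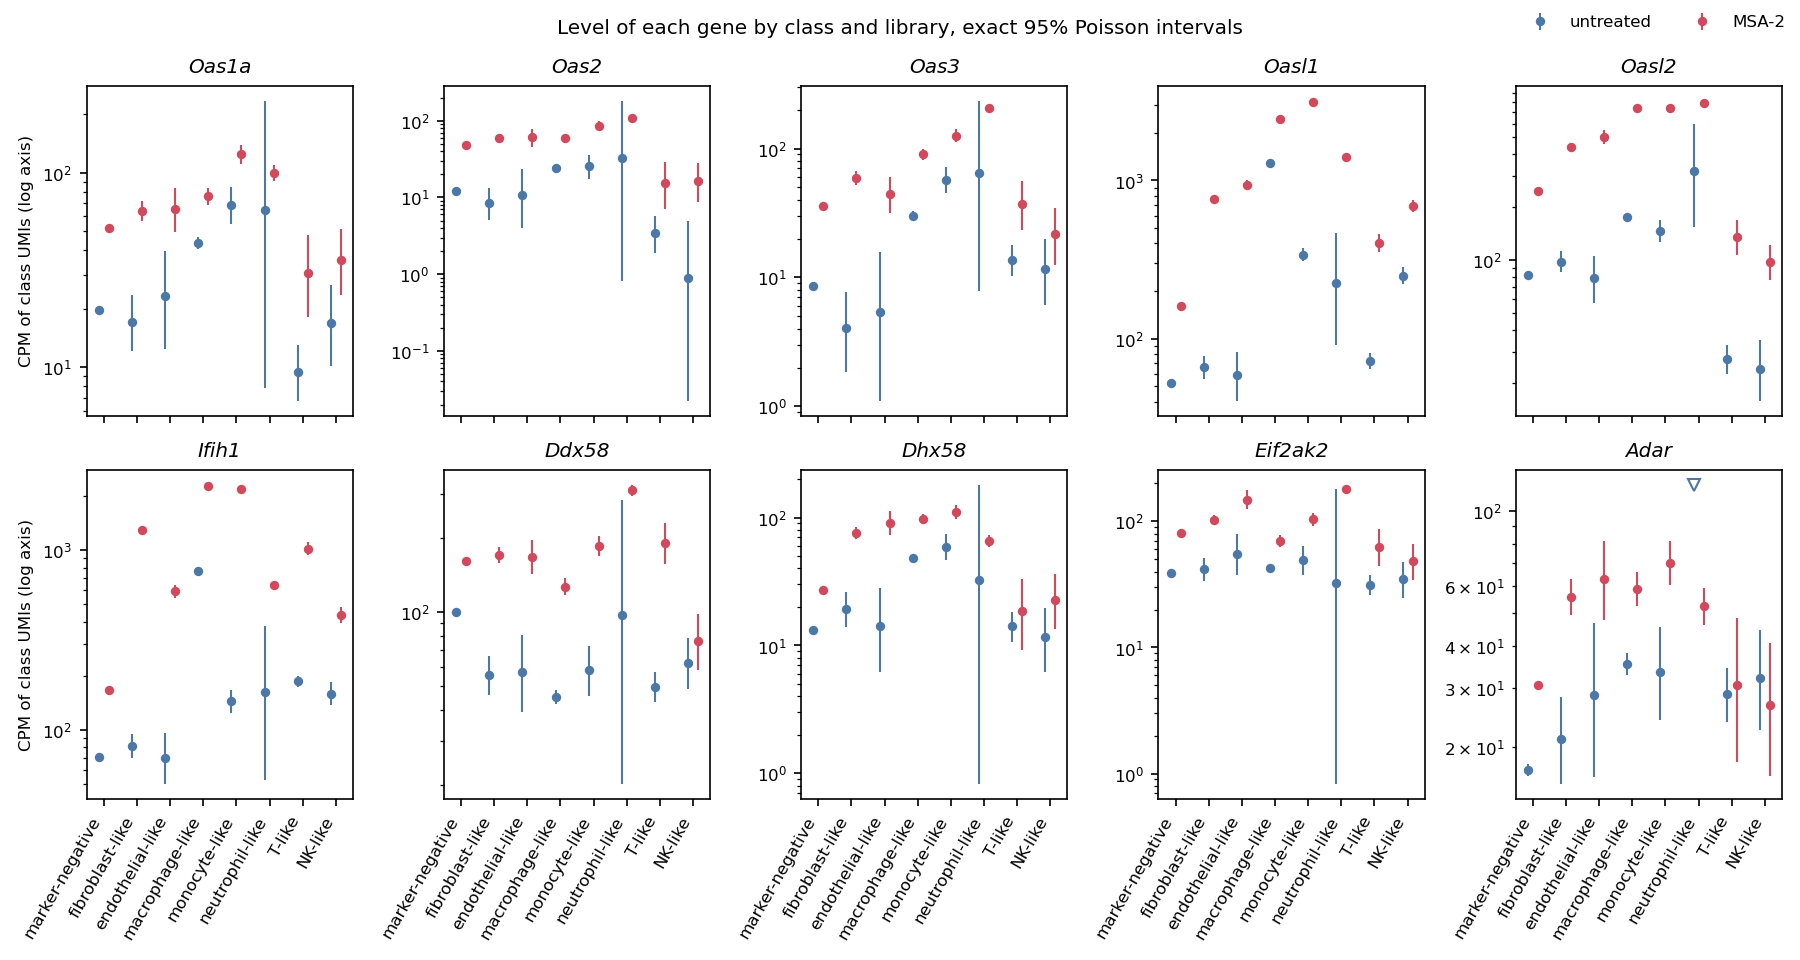
Level of each gene in CPM (log axis) in 8 classes of the untreated (blue) and MSA-2 (red) library, with exact 95% Poisson intervals, and with an open triangle at the upper limit where no UMI was counted. Untreated neutrophil-like cells number 25 and their intervals are wide, and Oasl1 and Ifih1 are highest in macrophage-like cells of the untreated library.

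The RIG-I-like helicases differed among themselves. Ifih1 encodes MDA5, which binds long double-stranded RNA. It stood at 768 CPM (756 to 780.5) in untreated macrophage-like cells, and the next class, dendritic-like cells, was at 217 CPM (186 to 250.3). After MSA-2, macrophage-like cells at 2269 CPM (2227 to 2312) and monocyte-like cells at 2197 CPM (2140 to 2255) could not be ordered. In monocyte-like cells the untreated level was 145 CPM and the log2 ratio 3.92 (3.71 to 4.14). Fibroblast-like cells went from 81.5 to 1293 CPM, a ratio of 3.99 (3.78 to 4.21), and thereby passed T-like cells, which went from 186 to 1019 CPM, a ratio of 2.46. In marker-negative cells Ifih1 went from 70.3 to 167 CPM, a ratio of 1.25. Ddx58 encodes RIG-I, which binds short double-stranded ends that carry a triphosphate. Its level in the untreated library was 99.6 CPM (98.0 to 101) in marker-negative cells and 45.3 CPM (42.4 to 48.4) in macrophage-like cells, the reverse of the order of Ifih1. Neutrophil-like cells were at 97.1 CPM from 3 UMIs and could not be ordered. After MSA-2 Ddx58 stood at 160.2 CPM in marker-negative cells, a log2 ratio of 0.68 (0.66 to 0.71), the lowest of the 10 genes in that class. It stood at 127 CPM in macrophage-like cells, a ratio of 1.48, and was highest in neutrophil-like cells at 311 CPM (295 to 327). Dhx58 encodes LGP2, a regulator of the other helicases that lacks their signaling domains. It went from 48.5 to 98.1 CPM in macrophage-like cells, a ratio of 1.01 (0.85 to 1.17), and from 13.1 to 27.4 CPM in marker-negative cells, a ratio of 1.06. In T-like cells it went from 14.1 to 18.6 CPM, and the interval of the ratio, 0.40 (-0.68 to 1.34), held 0.

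Eif2ak2, which encodes PKR, had the narrowest range over classes in the untreated library, and Adar, which encodes the editing enzyme ADAR1, had it in the MSA-2 library. The untreated levels of Eif2ak2 ran from 31.4 CPM in T-like to 65.5 CPM in pericyte-like cells, and every class overlapped its neighbor in the order. Its log2 ratio was 0.71 in macrophage-like cells (42.6 to 69.6 CPM), 1.05 in marker-negative cells (38.9 to 80.3 CPM) and 1.42 in endothelial-like cells (55.5 to 149 CPM). After MSA-2 it was highest in neutrophil-like cells at 182 CPM (170.5 to 195), overlapping endothelial-like cells. Adar went from 17.1 to 30.6 CPM in marker-negative cells, a ratio of 0.84 (0.77 to 0.91), and from 35.3 to 58.8 CPM in macrophage-like cells, a ratio of 0.74 (0.53 to 0.94). Lymphoid classes showed no detectable difference in Adar at this depth. In T-like cells it stood at 28.7 and 30.5 CPM, with a ratio of 0.08 (-0.72 to 0.81). In NK-like cells it stood at 32.0 and 26.6 CPM, with a ratio of -0.27 (-1.12 to 0.55). In NK-like cells the ratios of Eif2ak2 (0.47, -0.21 to 1.15), Ddx58 (0.29, -0.24 to 0.81), Dhx58 and Oas3 also had intervals that held 0.

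Free RNA from other cells bears on the low levels. S100a9, a neutrophil gene, went from 1.38 to 199 CPM in marker-negative cells, against 50054 CPM in MSA-2 neutrophil-like cells. C1qa, a macrophage gene, stood at 125 and 37.2 CPM in marker-negative cells, against 6935 and 6240 CPM in macrophage-like cells. If marker-negative cells held Oasl1 from macrophage-like and neutrophil-like cells in the same proportions as these markers, this would account for 44.7% of their untreated and 12.6% of their MSA-2 Oasl1 level. For Ifih1 the shares were 19.7% and 9.64%, and for Ddx58 0.828% and 1.24%. Other classes did not enter this estimate, among them monocyte-like cells, with Oasl1 at 340.2 CPM without and 3111 CPM with MSA-2. These cells held 0.685% of untreated and 1.34% of MSA-2 UMIs, so the amounts may be too low, more so with MSA-2. With these amounts subtracted, the log2 ratio in marker-negative cells was 2.28 for Oasl1, 1.42 for Ifih1 and 0.68 for Ddx58. In fibroblast-like cells it was 4.44 for Oasl1 and 4.35 for Ifih1 after subtraction. The ratio of Oasl1 went to 4.93 in endothelial-like and 3.19 in T-like cells, so these values depend on how free RNA is treated. Subtraction did not raise every ratio, and that of Oas3 in NK-like cells went from 0.896 to 0.783.

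The number of the 10 genes detected per cell was compared at equal depth by drawing 1500 UMIs from every cell, and 584 untreated and 1326 MSA-2 cells below that depth did not enter. On average, UMIs of 0.951 of the 10 genes were found in a cell of the untreated library and of 2.08 in a cell of the MSA-2 library. None of the 10 was detected in 43.8% of untreated and 17.6% of MSA-2 cells, and at least 3 were detected in 9.39% and 37.4%. In fibroblast-like cells the mean went from 0.538 to 2.59, and in endothelial-like cells from 0.586 to 3.06. Monocyte-like cells went from 1.22 to 3.49 and macrophage-like cells from 1.68 to 3.19. MSA-2 cells without any of the 10 genes made up 0.656% of the monocyte-like and 0.822% of the macrophage-like class, but 28.0% of the marker-negative class, where the mean went from 0.624 to 1.38. MSA-2 neutrophil-like cells held 3.22 of the genes on average, and only 3 untreated cells of this class were deep enough.

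**Figure D5:**
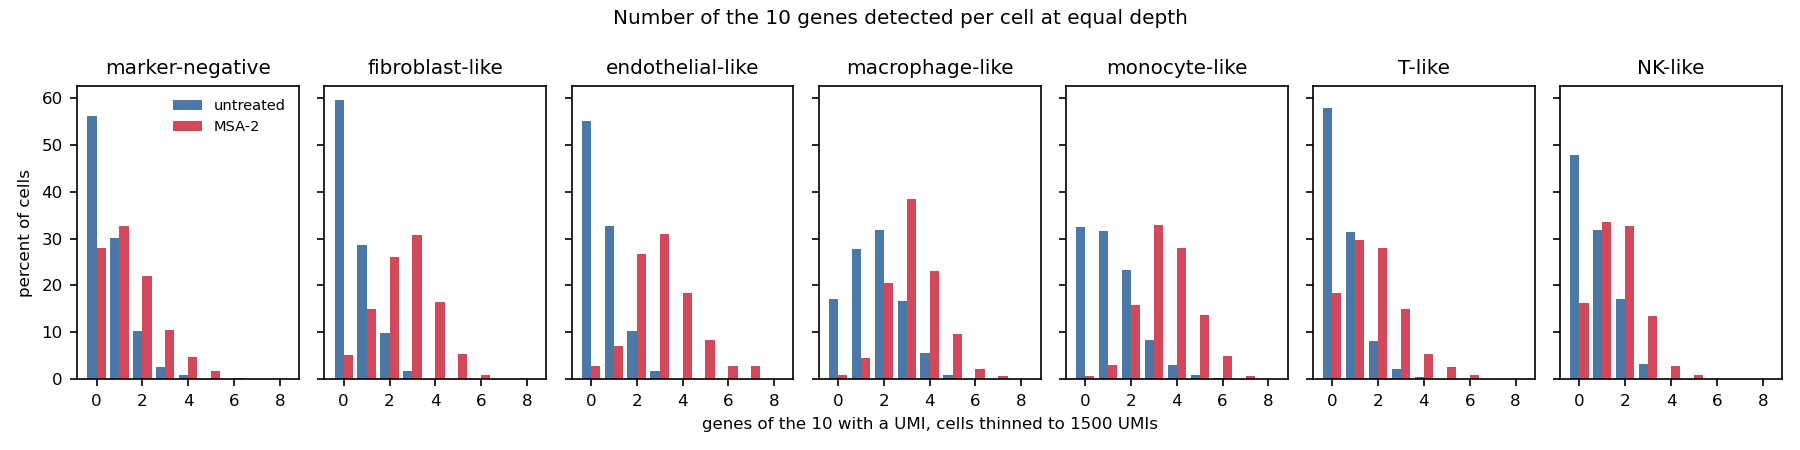
Percent of cells (vertical axis) by the number of the 10 genes with at least 1 UMI (horizontal axis) after thinning to 1500 UMIs, in 7 classes of the untreated (blue) and MSA-2 (red) library. In fibroblast-like cells the share with none was 59.6% untreated and 5.10% after MSA-2.

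The share of cells with a UMI of a gene follows its level at a fixed depth, so the shares describe the levels again and are no separate finding. A UMI of Ifih1 was found in 45.5% (43.8 to 47.3) of thinned untreated and 85.8% (83.3 to 88.1) of thinned MSA-2 macrophage-like cells. The unthinned shares were 69.6% and 94.95%, at median depths of 5722 and 5224 UMIs. In monocyte-like cells the thinned shares were 19.8% (15.6 to 24.6) and 86.1% (83.1 to 88.7), and the unthinned shares 34.1% and 95.1% at medians of 3542 and 3848 UMIs. Marker-negative cells, at medians of 20279 and 19989 UMIs, held it in 9.74% and 20.7% of thinned and 58.5% and 81.2% of unthinned cells. No class lacks these genes with certainty, so no share could be set against a class known to be negative. Oasl1 in macrophage-like cells was already present in 63.8% of thinned untreated cells and reached 92.4% after MSA-2, and the unthinned shares were 82.8% and 98.6%. Ddx58 was found in more thinned marker-negative than macrophage-like cells of the untreated library, 14.1% against 6.58%, and the unthinned shares were 77.3% and 22.4%.

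Macrophage-like cells of the untreated library also differed among themselves. The 346 thinned cells with a UMI of Ifnb1, which encodes interferon beta, held Oasl1 at 2303 CPM and Ifih1 at 1724 CPM. The 2874 cells without one held Oasl1 at 1185 CPM and Ifih1 at 683 CPM. Oasl2 stood at 322 CPM with and 161 CPM without. The intervals of the other 7 genes overlapped between the sets, with Oas1a at 38.5 CPM in both. After MSA-2 the gap was narrower, with Oasl1 at 2853 CPM in the 465 cells with Ifnb1 and 2248 CPM in the 387 cells without. The intervals of Oasl1, Oasl2 and Ifih1 did not overlap between the sets in either library, and those of the other 7 genes also overlapped after MSA-2. The share of all features with separate intervals is not given here, so this count has no background. A UMI of Ifnb1 may be free RNA, which was not separated here. Ifnb1 itself went from 118 to 841 CPM in macrophage-like cells. In monocyte-like cells it went from 5.58 to 2608 CPM, and the part of this cytokine in the levels of the 10 genes was not tested.

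The 10 genes varied together over classes and libraries, but to differing degrees. Over 14 sums of class by library, Pearson's r of log2(CPM + 10) between pairs of the genes was highest for Oas2 and Oasl2 (0.97) and lowest for Oasl1 and Ddx58 (0.45). Oasl1 and Ifih1 had an r of 0.92, and Ddx58 and Dhx58, both helicase genes, 0.49. Against the mean profile of the 10 genes, which contains each of them, r ran from 0.70 for Ddx58 to 0.94 for Oas3. Among 12658 genes compared, the other genes most like this mean profile were Rsad2 (0.979), Isg15 (0.968), Cmpk2 (0.964), Znfx1 (0.951) and Rnf213 (0.950). The sums share libraries and differ in depth, and these values are descriptions.

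Genes that act with the sensors were listed by role and followed over all cells. Of 14 genes that relay helicase signals, 1 was at a log2 ratio of at least 1 and none at -1 or below, against 9.42% and 7.60% of all features with at least 50 UMIs, so the counts of this list are near the background. The 1 gene was Irf7, a transcription factor of the interferon response, which went from 88.2 to 197 CPM (1.16). Mavs, the adaptor of the helicases, stood at 10.1 and 10.5 CPM (0.05, -0.04 to 0.14). Of 15 regulators of the helicases, 3 reached 1, namely Usp18 (30.2 to 119 CPM, 1.97), Tnfaip3 (90.4 to 191 CPM, 1.08) and Trim25 (81.9 to 164 CPM, 1.003). None of 7 genes of the PKR axis reached 1 over all cells, and Ddit3, an eighth, was listed at 0 in both libraries. Ppp1r15a, which encodes a subunit of the phosphatase that reverses the action of PKR and was singled out after its values had been seen, had a ratio of 0.42 over all cells but 3.56 in monocyte-like cells (193 to 2267 CPM).

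Of 10 genes listed as other RNA sensors and their partners, 3 were at a log2 ratio of at least 1 and 2 at -1 or below. The background was again 9.42% and 7.60% of all features. Whether each listed gene, such as Nlrp1b, senses RNA in the mouse was not tested. Ifit1, which binds viral RNA caps, went from 117 to 578 CPM (2.30), Ddx60 from 37.8 to 107 CPM (1.504) and Tlr3, an endosomal sensor, from 6.42 to 14.6 CPM (1.18). Zbp1, a sensor of Z-form nucleic acid, went from 134 to 233 CPM (0.80). Nlrp1b had a log2 ratio of -2.18 over all cells, -1.99 within marker-negative cells and -0.63 within macrophage-like cells. Unc93b1, a chaperone of endosomal receptors, had ratios of -1.63, -0.97 and -0.40 in the same order. Of 7 measured relatives of the 10 genes, Oas1g, the near copy of Oas1a, was at least at 1 (8.07 to 21.2 CPM, 1.39), and Adarb2 at -1 or below (0.911 to 0.208 CPM, -2.13). Of 8 genes that relay interferon signals, Stat2 was the 1 that reached 1 (54.0 to 110.5 CPM, 1.03), a count near the background.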

How the data were processed

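The authors deposited raw UMI counts per feature and barcode for 1 library per group, without normalization. The counts came from Cell Ranger (7.0.1 in the file headers, 7.0.0 in the submitters' processing notes, which also name mm10 and Seurat 4.3.0), and the paper's methods name a later version of each program. Whether intronic reads were counted is not given in the sources used here. The numbers of barcodes equal the numbers of cells that the methods state. The filter asked for 500 or more genes and no more than 20% mitochondrial UMIs (14039 untreated, 13963 MSA-2), and doublets called by Scrublet in scanpy 1.11.5 (0.8% per 1000 barcodes, seed 1) were removed (705, 5.02%, and 570, 4.08%). Classes were gated on 13 marker panels by per-cell scores. Scores, cuts and the leukocyte genes that bound the marker-negative class were set after the data had been seen, and 3 monocyte markers (Ly6c2, Ms4a4c, Plac8) can be raised by interferon. UMIs were summed per class, and ratios were given for classes with at least 20 cells in both libraries. Pericyte-like, dendritic-like, B, mast and muscle cells got no ratio. Intervals were exact Poisson, conditional binomial or Clopper-Pearson. For ratios, 3 counts stood in place of a count of 0. Ratios were tested on simulated data, and the outcome is not given here. Python 3.11.15, numpy 2.4.6, scipy 1.17.1, pandas 2.3.3 and matplotlib 3.10.9 were used, with edgeR 4.0.16 in R 4.3.3 for TMM factors. Positions came from GENCODE M21 and promoters from RefSeq. The 10 genes and all lists were chosen with earlier results of these data known. Named genes were the members, the 2 highest and 2 lowest of each pathway list where they passed the fold, Mavs, Zbp1, Irf7 and the 5 genes most like the mean profile, and some listed genes are not reported here. Alternatives covered the cell filter, doublets, gate, scaling, added CPM, fold, depth of thinning and, added after seeing the data, a monocyte panel without those 3 markers and subtraction of free RNA.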

Additional observations from a re-analysis of the deposited data

How the results depend on the processing

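No paired analysis was possible because each group had 1 library. Of 84 alternatives for counts of genes at a log2 ratio of at least 1, 82 stayed within 1.5 times the count given. This limit is loose, because a count cannot exceed 10 and a rise from a high count could not pass it. A fall from 8 to 6 in marker-negative cells with TMM factors also stayed within it. With a log2 ratio of at least 0.58 in place of 1 the count was 10 over all cells and 10 in macrophage-like cells. The share of features at 0.58 is not given here, so these counts have no background. Of 68 alternatives for median log2 ratios, none turned negative. Of these, 58 stayed inside a range averaged from the counting intervals of the genes ranked in the middle, which is not an interval of the median itself. The range is wide where counts are few, running from -0.03 to 4.34 in neutrophil-like cells, so staying inside says little there. Over all cells the median was 1.07 under the stricter cell filter, 1.36 with equal weight per cell and 0.97 with 10 CPM added. In marker-negative cells it was 1.25 with TMM factors, 1.41 with equal weight, 1.10 with 10 CPM added and 1.43 with free RNA subtracted. With 10 CPM added it was 1.73 in fibroblast-like, 1.79 in endothelial-like, 0.97 in macrophage-like, 1.03 in T-like and 0.68 in NK-like cells. Added CPM pulls low levels together by construction, and the cause of the other shifts was not tested. With the monocyte panel without interferon-responsive markers, the monocyte-like median was 1.73 and the count 10 of 10, as it also was with TMM factors. The share of cells with a UMI of any of the 10 genes depended on depth. Thinned to 1000 UMIs it was 46.6% untreated and 75.5% MSA-2 over all cells, 34.3% and 60.4% in marker-negative cells, and 74.1% and 97.5% in macrophage-like cells. Without thinning it was 91.6% and 98.7%, 96.6% and 99.1%, and 96.4% and 99.9%. Neutrophil-like cells gave no value under the stricter cell filter or gate, which left too few untreated cells. Adar in NK-like cells was below 0 in all 9 settings run, with an interval that held 0, and in neutrophil-like cells, where it had no untreated UMI, in 3 of 6. Of 20 alternatives for the share of all features at or past the fold, 10 moved by more than 1.5 times, and in macrophage-like cells the share was 27.8% with a minimum of 1 UMI.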
